A study of Mus musculus with 6 samples.

Results

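The genes described here are 10 mouse genes for the recognition and uptake of dying cells. They are the receptor tyrosine kinases Mertk, Axl and Tyro3, the bridging proteins Gas6, Pros1 and Mfge8, the surface receptors Timd4, Stab1 and Msr1, and the adaptor Elmo1. They were chosen by name, as the 10 entries of a table of 54532 genes that carry these symbols. The table was made from 6 RNA sequencing libraries of bone marrow-derived macrophages (BMDMs), and it bears on the question of what drug-exposed tumour cells do to macrophages. The macrophages shared their culture with ID8, an ovarian cancer line of the mouse, which beforehand had received either 40 µM of the DNA-crosslinking platinum drug cisplatin (3 libraries) or phosphate-buffered saline (PBS, the 3 control libraries). The methods of the study speak of monocytes from the marrow of young C57BL/6 mice and name no growth factor in the culture, and no genotype or strain is given in the labels. No step that separated BMDM from ID8 RNA is described. The methods mention biological replicates for the authors' test of expression and triplicate repeats of cell experiments. They do not say what a replicate was, and no label ties a library to a separate culture or animal. The p-values therefore measure the spread between these libraries, which may still be technical.

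A dying cell moves phosphatidylserine to the outer side of its membrane, and phagocytes read this lipid either directly or through a soluble protein that bridges the lipid and a receptor. Gas6 and protein S (Pros1) bridge it to the kinases Tyro3, Axl and Mertk, whereas Mfge8 bridges it to alpha v integrins. Timd4 and Stab1 bind the lipid themselves, and Elmo1 works inside the cell, where with a Dock protein it activates the GTPase Rac to engulf the bound particle. In macrophages, Mertk is best known for quiet clearance of apoptotic cells and Axl for uptake in inflamed settings.

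The DNA upstream of the transcription starts was read from RefSeq promoters on GRCm38.p6, in which 9 of the 10 genes were matched with 10 promoters. The 250 bases before the start are shown for Axl and Mfge8, both called lower with cisplatin, and for Mertk and Stab1, both called higher. These are chr7:25788734-25788983 (minus strand) for Axl, chr7:79149061-79149310 (minus strand) for Mfge8, chr2:128698665-128698914 (plus strand) for Mertk and chr14:31168642-31168891 (minus strand) for Stab1. Each runs 5′ to 3′ on the strand of its gene. Capitals mark matches, on either strand, to any of 5 short motifs.
Axl: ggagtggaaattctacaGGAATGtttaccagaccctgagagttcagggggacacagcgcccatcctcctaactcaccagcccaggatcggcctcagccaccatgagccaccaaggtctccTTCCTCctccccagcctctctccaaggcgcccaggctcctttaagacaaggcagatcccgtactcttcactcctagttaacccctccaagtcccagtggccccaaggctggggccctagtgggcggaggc
Mfge8: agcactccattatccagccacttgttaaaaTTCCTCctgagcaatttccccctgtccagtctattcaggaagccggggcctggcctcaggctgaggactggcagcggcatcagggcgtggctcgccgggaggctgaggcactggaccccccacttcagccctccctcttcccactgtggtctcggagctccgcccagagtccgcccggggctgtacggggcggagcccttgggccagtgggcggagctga
Mertk: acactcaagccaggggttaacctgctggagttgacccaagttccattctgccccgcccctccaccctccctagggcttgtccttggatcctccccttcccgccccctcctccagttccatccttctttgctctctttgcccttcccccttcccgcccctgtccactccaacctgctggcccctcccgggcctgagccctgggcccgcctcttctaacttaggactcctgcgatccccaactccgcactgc
Stab1: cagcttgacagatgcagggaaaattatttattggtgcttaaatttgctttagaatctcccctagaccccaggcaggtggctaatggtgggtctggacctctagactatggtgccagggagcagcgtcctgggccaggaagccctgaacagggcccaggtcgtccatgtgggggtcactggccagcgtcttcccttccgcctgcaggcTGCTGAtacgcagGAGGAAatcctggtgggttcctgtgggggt

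The motifs searched were the core of the interferon-stimulated response element (GAAA repeated after a gap of 2 bases), TGANTCA, bound by AP-1, GAGGAA, the core bound by the macrophage factor PU.1, GGAATG, bound by TEAD factors, and TGCTGA, a half-site of MAF factors. GAGGAA and GGAATG can share bases, as can TGCTGA and TGANTCA. The interferon motif was present in 2.98% of all 32851 promoters and the AP-1 motif in 6.75%, and neither was in any of the 10. The PU.1 core, present in 23.25% of all promoters, occurred in 3 of the 10, those of Axl (on the opposite strand, 130 bases before the start), Mfge8 (on the opposite strand, 220 bases before) and Stab1 (30 bases before). The TEAD motif, in 12.6% of all promoters, lay 233 bases before the Axl start. The MAF half-site, in 16.1% of all promoters, lay 43 bases before the Stab1 start and at 150 and 44 bases before the Timd4 start. The printed Mertk promoter held none of the 5 motifs. Its GC content was 63.6%, and those of Axl, Mfge8 and Stab1 were 60.0%, 65.2% and 57.2%, against a median of 52.4% over all promoters.

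The deposited values are FPKM, in which fragments are counted relative to the length of the gene and the depth of the library, so levels of different genes can be set side by side. The reads behind them summed to between 15776238 and 16396353 in the cisplatin libraries and between 15907567 and 17924686 in the PBS libraries. Pearson's r between libraries of a group, taken across the 13441 tested genes, which are not independent replicates, was 0.984 to 0.989. Genes listed for macrophages, such as Csf1r, Adgre1 and Itgam, were expressed in every library and summed to 1842 to 1889 FPKM with PBS and 4585 to 4801 with cisplatin, with 10 of 10 higher and 3 of 10 called. That sum lay mostly in Lyz2, at a mean of 1161 FPKM with PBS and 3459 with cisplatin. Csf1r (44.0 and 84.5 FPKM) and Cd68 (156 and 179 FPKM) differed less and were not called. Genes listed for ID8 and mesothelial cells summed to 1308 to 1411 FPKM with PBS and 242.3 to 262.0 with cisplatin. Of those 14 genes, 8 were called lower, none was called higher, and 5 (Krt7, Lrrn4, Muc16, Epcam and Igfbp5) stayed under 1 FPKM in all libraries. Genes listed for neutrophils summed to 4594 to 4750 FPKM with PBS and 8177 to 8443 with cisplatin, and lymphocyte genes to 195.9 to 203.9 and 442.3 to 453.2 FPKM. The neutrophil sum lay mostly in S100a8 and S100a9, neither of them called, while 4 of the 8 neutrophil genes were called higher. Ly6g was at 2.81 FPKM with PBS and 3.15 with cisplatin (limma adjusted p = 0.349). Dendritic cell genes (19.06 to 20.47 against 44.65 to 46.88 FPKM) and the 4 Y-linked genes (19.5 to 22.7 against 41.6 to 42.8 FPKM), which serve as another scaling reference, were also higher with cisplatin in sum, with 4 of 5 tested dendritic cell genes higher and Zbtb46 lower. The fibroblast sum was lower (58.7 to 62.6 against 21.8 to 24.4 FPKM) and lay mostly in Dcn, the 1 called of 3 tested, while Thy1 was higher. Each result that follows therefore compares cultures in which these marker sums also differed, and in such bulk RNA fewer cells of a type and less RNA per cell cannot be told apart.

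Beside ID8 cells that had received cisplatin, Mertk, Pros1, Stab1 and Msr1 rose and Axl and Mfge8 fell. With libraries scaled to macrophage or Y-linked genes, Stab1 alone of the 4 was still called higher. Tyro3 and Gas6 were lower and Elmo1 higher by less than the threshold, and Timd4 was near 0 in all libraries. Elmo1 turned slightly lower when libraries were scaled to macrophage or Y-linked genes. A gene was called when its adjusted p, from limma across all tested genes with Benjamini-Hochberg adjustment, was under 0.05 and its log2 fold change at least 1 in size, that is 2-fold. Fold changes are cisplatin against PBS on the log2(FPKM + 1) scale, where the added 1 makes changes at low levels look smaller. By this rule 4 of the 10 genes were called higher, where 4.67% of all tested genes were, and 2 of the 10 were called lower, where 11.3% were. In 9 of the 10 the 3 cisplatin libraries lay apart from the 3 PBS libraries, 5 of them higher and 4 lower, which was so for 72.4% of all tested genes (35.2% higher and 37.2% lower). The adjusted p alone was under 0.05 for these 9 genes, as for 68.0% of all tested genes. Of the 9, Mertk, Pros1 and Tyro3 reached the level required for testing, 1 FPKM in 3 libraries, in the libraries of their higher group only, so for them some difference was built into the selection.

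**Figure D1:**
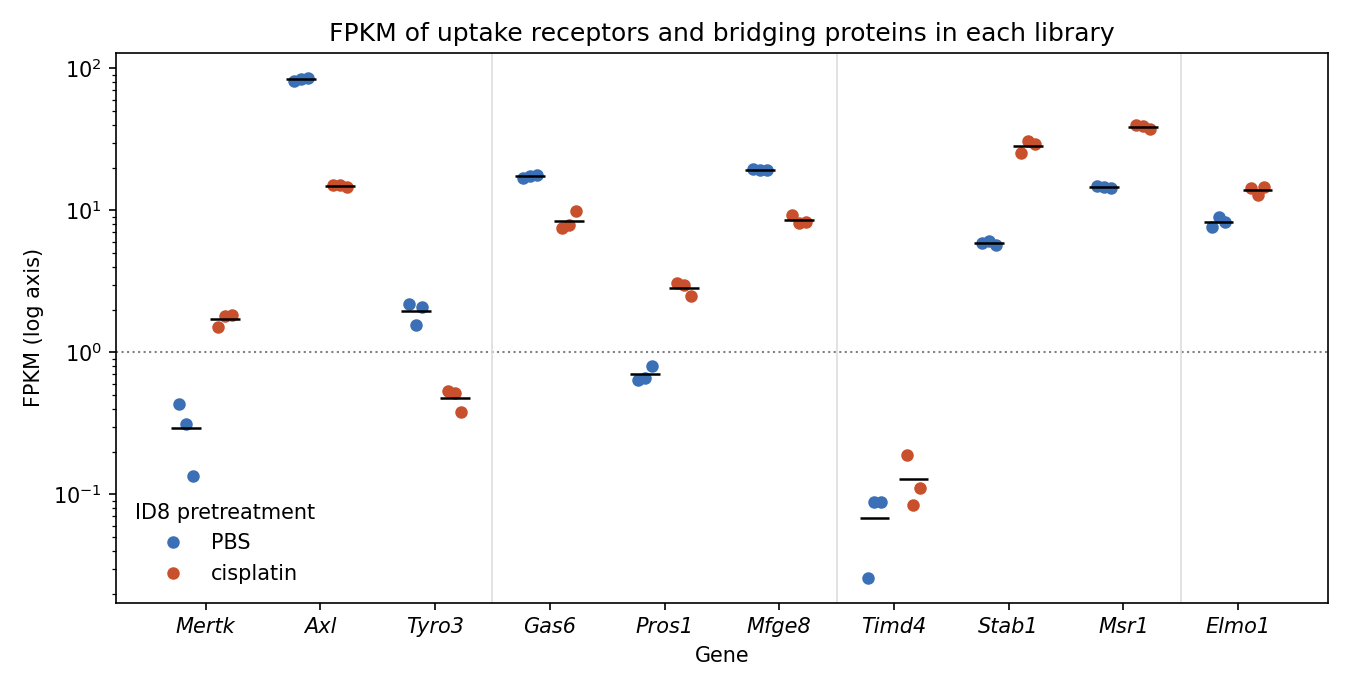
FPKM of each of the 10 genes (log axis) in the 3 PBS and 3 cisplatin libraries, with points for libraries, a black line for each group mean and a dotted line at 1 FPKM. Axl had the highest points of the PBS libraries, near 84 FPKM, and Msr1 those of the cisplatin libraries, near 39 FPKM, and the groups overlapped for Timd4 alone.

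Axl was the most abundant of the 10 genes with PBS and was reduced most. Axl (ENSMUSG00000002602, chromosome 7, 25757273 to 25788705, minus strand) was at 81.6, 84.6 and 85.4 FPKM in PBS replicates 1, 2 and 3 and at 15.0, 15.1 and 14.7 FPKM in cisplatin replicates 1, 2 and 3. The groups were far apart, and the libraries of each group lay close together. The means were 83.9 ± 1.97 and 14.9 ± 0.205 FPKM (SD, n = 3 each), a ratio of 5.62 and a log2 fold change of -2.41 (SE 0.034, limma adjusted p = 4.58e-08). In size this change, on the log2(FPKM + 1) scale, ranked 234 of the 13441 tested genes.

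Mertk, a receptor for both Gas6 and protein S, moved the other way at a far lower level. Mertk (ENSMUSG00000014361, chromosome 2, 128698956 to 128802894, plus strand) was at 0.43, 0.311 and 0.134 FPKM with PBS and at 1.52, 1.80 and 1.84 FPKM with cisplatin. Its PBS values rested on 9 to 33 reads per library and its cisplatin values on 112 to 132 reads. The lowest cisplatin library was still 3.53-fold above the highest PBS library. The means of 0.292 ± 0.149 and 1.72 ± 0.176 FPKM (SD, n = 3 each) differed 5.90-fold, with a log2 fold change of 1.08 (SE 0.12, limma adjusted p = 0.000236). Without PBS replicate 3, the lowest library, the log2 fold change was 0.99, short of the threshold, as were the 0.68 and 0.67 found when libraries were scaled to the macrophage or Y-linked genes. It was larger with 0.1 FPKM added (2.29), after TPM rescaling (1.79) and in limma voom on the recovered reads (2.73).

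Tyro3, the third kinase and, like Mertk, a receptor for both Gas6 and protein S, was lower with cisplatin, but not past the fold threshold. Tyro3 (ENSMUSG00000027298, chromosome 2, 119797733 to 119818104, plus strand) was at 2.21, 1.55 and 2.07 FPKM with PBS and at 0.531, 0.521 and 0.381 FPKM with cisplatin, from 39 to 242 reads per library. The groups did not overlap. The means of 1.94 ± 0.344 and 0.478 ± 0.0839 FPKM (SD, n = 3 each) differed 4.07-fold, while the log2 fold change on the scale with 1 FPKM added was -0.99 (SE 0.12, limma adjusted p = 0.000305). With 0.1 FPKM added instead it was -1.82 and Tyro3 was called.

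The 3 kinases together summed to 84.3 to 87.6 FPKM with PBS and 16.9 to 17.4 FPKM with cisplatin. Axl supplied 96.9% to 97.8% of this sum in the PBS libraries and 86.7% to 88.0% in the cisplatin libraries. The share of Mertk was 0.153% to 0.510% with PBS and 8.90% to 10.9% with cisplatin, without overlap. Tyro3 supplied 1.80% to 2.62% with PBS and 2.25% to 3.11% with cisplatin, and here the groups overlapped. Although its own level was lower, the share of Tyro3 thus did not separate the groups.

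Of the soluble ligands of these kinases, Gas6 was lower with cisplatin and Pros1 was higher. Gas6 (ENSMUSG00000031451, chromosome 8, 13465374 to 13494490, minus strand) was at 16.8, 17.5 and 17.8 FPKM with PBS and at 7.55, 7.84 and 9.81 FPKM with cisplatin. Every cisplatin library was below every PBS library, with replicate 3 the highest of the cisplatin libraries. The means of 17.4 ± 0.549 and 8.40 ± 1.23 FPKM (SD, n = 3 each) differed 2.07-fold. The log2 fold change of -0.97 (SE 0.092, limma adjusted p = 8.36e-05) fell just short of the threshold, and without cisplatin replicate 3 it was -1.08 and called.

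Pros1 encodes protein S, a vitamin K-dependent plasma protein that also limits coagulation. Pros1 (ENSMUSG00000022912, chromosome 16, 62854307 to 62929346, plus strand) was at 0.636, 0.660 and 0.804 FPKM with PBS and at 3.06, 2.96 and 2.47 FPKM with cisplatin. It rested on 42 to 213 reads per library, and the groups did not overlap. The means of 0.700 ± 0.0913 and 2.83 ± 0.316 FPKM (SD, n = 3 each) differed 4.05-fold, with a log2 fold change of 1.17 (SE 0.098, limma adjusted p = 4.51e-05). With libraries scaled to the macrophage or Y-linked genes this was 0.62 or 0.59, and Pros1 was not called. With 0.1 FPKM added it was 1.88 and in limma voom 2.10.

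Within each library the ratio of Gas6 to Pros1 was 26.4, 26.5 and 22.2 with PBS and 2.46, 2.64 and 3.97 with cisplatin. Gas6 exceeded Pros1 in all 6 libraries, by less with cisplatin, and the log2 ratio differed by -3.08 on average. The ratio of Axl to Mertk was 189.8, 272 and 637.8 with PBS and 9.89, 8.38 and 7.97 with cisplatin, a mean log2 difference of -5.20. Its spread over the PBS libraries came with the few Mertk reads there. The ligand sum of Gas6 and Pros1 was 17.4 to 18.6 FPKM with PBS and 10.6 to 12.3 FPKM with cisplatin. Relative to the kinase sum it was 0.207, 0.210 and 0.213 with PBS and 0.621, 0.622 and 0.727 with cisplatin, so ligand transcripts were 3.12-fold higher relative to kinase transcripts. For each of these 3 ratios a two-sided exact permutation of the library labels gave p = 0.1, the smallest that 3 libraries against 3 allow, and 0.1 again after Benjamini-Hochberg adjustment over the 3. Such ratios within a library do not depend on how libraries are scaled to each other.

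**Figure D2:**
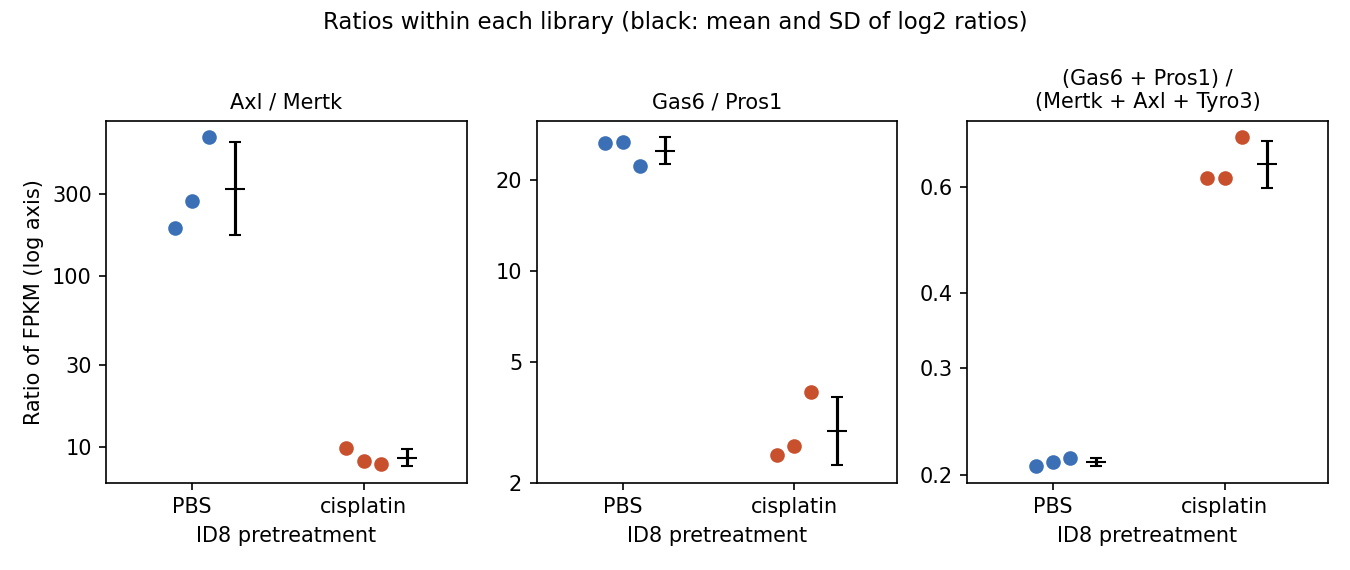
Ratios of FPKM within each library (log axes) for Axl to Mertk, Gas6 to Pros1 and the ligands Gas6 and Pros1 to the kinases Mertk, Axl and Tyro3, with points for libraries and the mean and SD of the log2 ratios in black. Axl to Mertk lay between 189.8 and 637.8 with PBS and between 7.97 and 9.89 with cisplatin, and the groups overlapped in none of the 3 panels.

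Mfge8, the bridging protein of the integrin route, fell. Mfge8 (ENSMUSG00000030605, chromosome 7, 79133768 to 79149060, minus strand) was at 19.5, 19.3 and 19.1 FPKM with PBS and at 9.19, 8.19 and 8.31 FPKM with cisplatin. The PBS libraries were nearly equal, and all cisplatin libraries lay below them. The means of 19.3 ± 0.159 and 8.56 ± 0.550 FPKM (SD, n = 3 each) gave a log2 fold change of -1.09 (SE 0.052, limma adjusted p = 2.87e-06), which was -1.96 with libraries scaled to the macrophage genes. A test against a 2-fold change, limma treat, did not call it (adjusted p = 0.566), nor Mertk (1) or Pros1 (0.533). The integrin subunits that receive Mfge8 also fell, Itgb5 from 44.8 ± 1.41 to 11.5 ± 0.280 FPKM (log2 fold change -1.87, limma adjusted p = 1.08e-07). Itgav and Itgb3, named after their values were seen, had log2 fold changes of -1.69 and -1.71 (limma adjusted p = 1.62e-07 and 2.19e-07).

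Among the surface receptors, Stab1 and Msr1 rose. Stab1 encodes stabilin-1, a large scavenger receptor that binds phosphatidylserine and modified lipoproteins. Stab1 (ENSMUSG00000042286, chromosome 14, 31139013 to 31168641, minus strand) was at 5.90, 6.09 and 5.73 FPKM with PBS and at 25.4, 30.9 and 29.1 FPKM with cisplatin. The lowest cisplatin library was 4.17-fold above the highest PBS library. The means of 5.91 ± 0.181 and 28.4 ± 2.81 FPKM (SD, n = 3 each) gave a log2 fold change of 2.09 (SE 0.074, limma adjusted p = 7.55e-07), which on this log2(FPKM + 1) scale ranked 385 in size of the 13441 tested genes. The ratio of the means was 4.82, below the 5.90 of Mertk. Stab1 shares 112 exon bases (1.09% of its exons) with Nt5dc2 on the opposite strand. Nt5dc2 was at 12.6, 11.9 and 13.9 FPKM with PBS and 24.9, 26.3 and 28.6 FPKM with cisplatin. The sources used here do not state whether the counting used strand, so reads in the shared bases cannot be told apart. Elmo1 likewise shares 403 exon bases (3.2%) with Gm32036, and Gas6 shares 34 (1.33%) with Tmem255b, but these partners did not exceed 0.193 and 0.163 FPKM in any library.

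Msr1 encodes the class A scavenger receptor, which takes up acetylated lipoproteins, bacteria and apoptotic thymocytes. Msr1 (ENSMUSG00000025044, chromosome 8, 39581685 to 39642673, minus strand) was at 14.8, 14.5 and 14.3 FPKM with PBS and at 40.1, 39.0 and 37.3 FPKM with cisplatin. The groups did not overlap, and Msr1 was the highest of the 10 genes in each cisplatin library. The means of 14.6 ± 0.267 and 38.8 ± 1.45 FPKM (SD, n = 3 each) gave a log2 fold change of 1.36 (SE 0.041, limma adjusted p = 3.85e-07). Scaled to the macrophage or Y-linked genes, it was 0.45 or 0.40 and not called.

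Timd4, the phosphatidylserine receptor TIM-4 that marks resident macrophages of several tissues, was close to the detection limit. Timd4 (ENSMUSG00000055546, chromosome 11, 46810800 to 46844332, plus strand) was at 0.026, 0.0886 and 0.089 FPKM with PBS and at 0.189, 0.0841 and 0.111 FPKM with cisplatin. These values stood for 1 to 7 reads per library. The groups overlapped, and Timd4 was under the level required for testing. Tested with no such filter, it had a log2 fold change of 0.079 (SE 0.050, limma adjusted p = 0.327), and a difference was not detectable at this depth.

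Elmo1, the intracellular adaptor, was higher with cisplatin by less than the fold threshold. Elmo1 (ENSMUSG00000041112, chromosome 13, 20090596 to 20608353, plus strand) was at 7.66, 8.91 and 8.31 FPKM with PBS and at 14.3, 12.9 and 14.6 FPKM with cisplatin. The groups did not overlap. The means of 8.29 ± 0.624 and 13.9 ± 0.940 FPKM (SD, n = 3 each) differed 1.68-fold, with a log2 fold change of 0.68 (SE 0.071, limma adjusted p = 0.000133). For Elmo1 this became -0.18 (limma adjusted p = 0.0586) when libraries were scaled to the macrophage genes, and -0.23 (limma adjusted p = 0.0253) with the Y-linked genes. Its Dock partners, named after their values were seen, differed from each other. Dock2, the Dock protein of blood cells, rose from 15.4 to 33.5 FPKM (log2 fold change 1.07, limma adjusted p = 8.03e-07), and Dock1 was at 3.81 FPKM with PBS and 2.28 FPKM with cisplatin, a log2 fold change of -0.55 that was not called.

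The order of the 10 genes by FPKM differed between the groups. With PBS it was Axl, Mfge8, Gas6, Msr1, Elmo1, Stab1, Tyro3, Pros1, Mertk and Timd4, and no neighbours in that order had overlapping libraries. With cisplatin it was Msr1, Stab1, Axl, Elmo1, Mfge8, Gas6, Pros1, Mertk, Tyro3 and Timd4, and only the libraries of Mfge8 and Gas6 overlapped among neighbours. Mertk lay above Tyro3 in all cisplatin libraries and below it in all PBS libraries. Among the 13441 tested genes, the PBS level of Axl was at the 96.1th percentile and its cisplatin level at the 71.5th, whereas Mertk went from the 0.3rd to the 16.8th.

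The calls of several of these genes, and the direction of Elmo1, depended on what the libraries were scaled to. When they were scaled to the macrophage genes, which were themselves higher with cisplatin, the median log2 fold change of all tested genes moved from -0.0011 to -0.79. On that scale Axl was at -3.32, Stab1 at 1.22 and called, and Mertk, Pros1 and Msr1 were higher but no longer called (0.68, 0.62 and 0.45). Mfge8 was at -1.96 and still called, and Tyro3 and Gas6 were then called lower (-1.45 and -1.84). Elmo1 turned from higher to slightly lower, without a detectable difference on that scale (limma adjusted p = 0.0586). How much of each difference went with the marker sums was not tested.

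**Figure D3:**
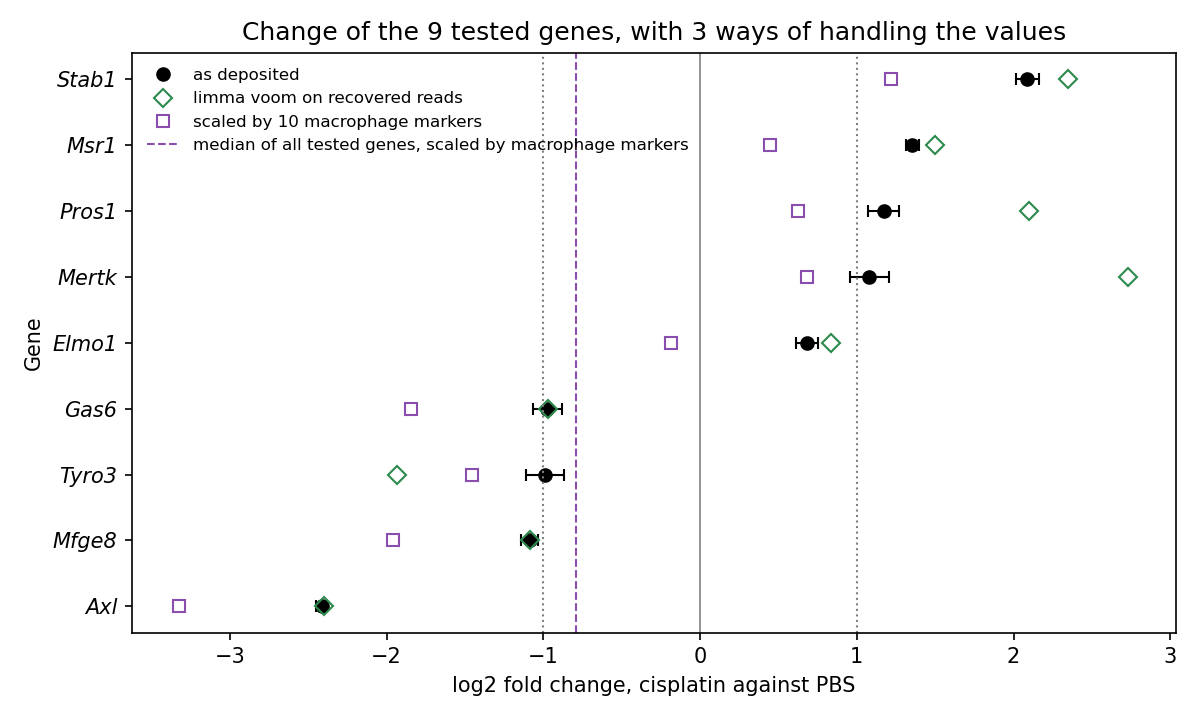
Log2 fold change, cisplatin against PBS, of the 9 tested genes with 3 ways of handling the values, with the SE as bars and dotted lines at a change of 2-fold. Axl lay furthest to the left and Stab1 furthest to the right under the handling used in the text (-2.41 and 2.09), and with scaling to the macrophage genes Elmo1 crossed 0 to -0.18.

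The other genes of the pathway were taken from 7 lists of 90 genes in all, of which 83 were tested. Of these, 18 (21.7%) were called higher, against 4.67% of all tested genes, and 10 (12.0%) were called lower, against 11.3%. With scaling to the macrophage genes the counts were 5 and 28, where 89 and 4866 of all 13441 tested genes were called, and the macrophage and ID8 marker sums given above moved with these lists too. Of the 83, 6 (Trem2, C4b, Gulp1, Rab17, S1pr3 and Arhgef16) reached the level required for testing in the libraries of their higher group only, so that a difference was built in for 2 of the genes called higher and 3 of those called lower. Nothing particular to the lists was tested.

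Of 15 other uptake receptors tested, 5 were called higher and 4 lower, with a median log2 fold change of 0.33. Marco, a class A scavenger receptor like Msr1, was raised from 15.5 ± 2.48 to 84.2 ± 7.49 FPKM (SD, n = 3 each), with a log2 fold change of 2.38 (SE 0.12, limma adjusted p = 4.05e-06). Cd36, which binds oxidised lipid and thrombospondin on apoptotic cells, rose from 7.96 to 38.8 FPKM (log2 fold change 2.16, limma adjusted p = 1.04e-06). Cd300a, Cd300lb and Trem2 were the other receptors called higher, and with Itgb5, Itgav and Itgb3 the lipoprotein receptor Lrp1 was called lower, from 91.2 to 45.1 FPKM.

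Of 10 other bridging and eat-me proteins tested, 4 were called higher and 2 lower (median 0.073). Thrombospondin-1 (Thbs1) rose from 136 to 930 FPKM (log2 fold change 2.76, limma adjusted p = 3.02e-08). The complement C1q chains C1qa, C1qb and C1qc, which opsonise apoptotic cells, were all called higher, C1qb from 5.74 to 33.3 FPKM (log2 fold change 2.35, limma adjusted p = 1.45e-06). Complement C3 fell from 1397 to 291 FPKM (log2 fold change -2.26, limma adjusted p = 1.05e-07), and C4b was also called lower.

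Of 5 don't-eat-me proteins, by which living cells or phagocytes hold back uptake, 2 were called higher and none lower (median 0.66). These were the inhibitory receptors Sirpa, from 54.4 to 131.5 FPKM (log2 fold change 1.26), and Siglecg, from 8.08 to 21.9 FPKM (1.33). Cd47 alone of the 5 was lower, from 105.7 to 60.3 FPKM (log2 fold change -0.80, limma adjusted p = 6.28e-06), by less than the threshold. Of 7 receptors for find-me signals, the nucleotides and lipids that dying cells release, 4 were called higher and none lower (median 1.08). S1pr1, a receptor for sphingosine 1-phosphate, rose from 3.84 to 22.5 FPKM (log2 fold change 2.28), S1pr4 from 5.83 to 13.7 FPKM (1.11) and the nucleotide receptor P2ry6 from 3.52 to 8.69 FPKM (1.10).

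Of 18 genes of engulfment signalling, 2 (Dock2 and Plcg2) were called higher and 3 lower (median -0.18). The scaffold Bcar1 fell from 16.1 to 2.57 FPKM (log2 fold change -2.26), the adaptor Gulp1 from 3.01 to 0.309 FPKM (-1.61) and the focal adhesion kinase Ptk2 from 10.5 to 4.10 FPKM. Over all tested genes 15.9% were called in either direction. Of 16 genes of the phagosome and of LC3-associated processing, 1 was called, Rab17, which fell from 4.82 to 0.331 FPKM, and the median was 0.18. Of 12 genes of lipid sensing and efflux, 1 was called, Apoe, which rose from 4.58 to 12.5 FPKM (log2 fold change 1.28), and the median was 0.14.

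**Figure D4:**
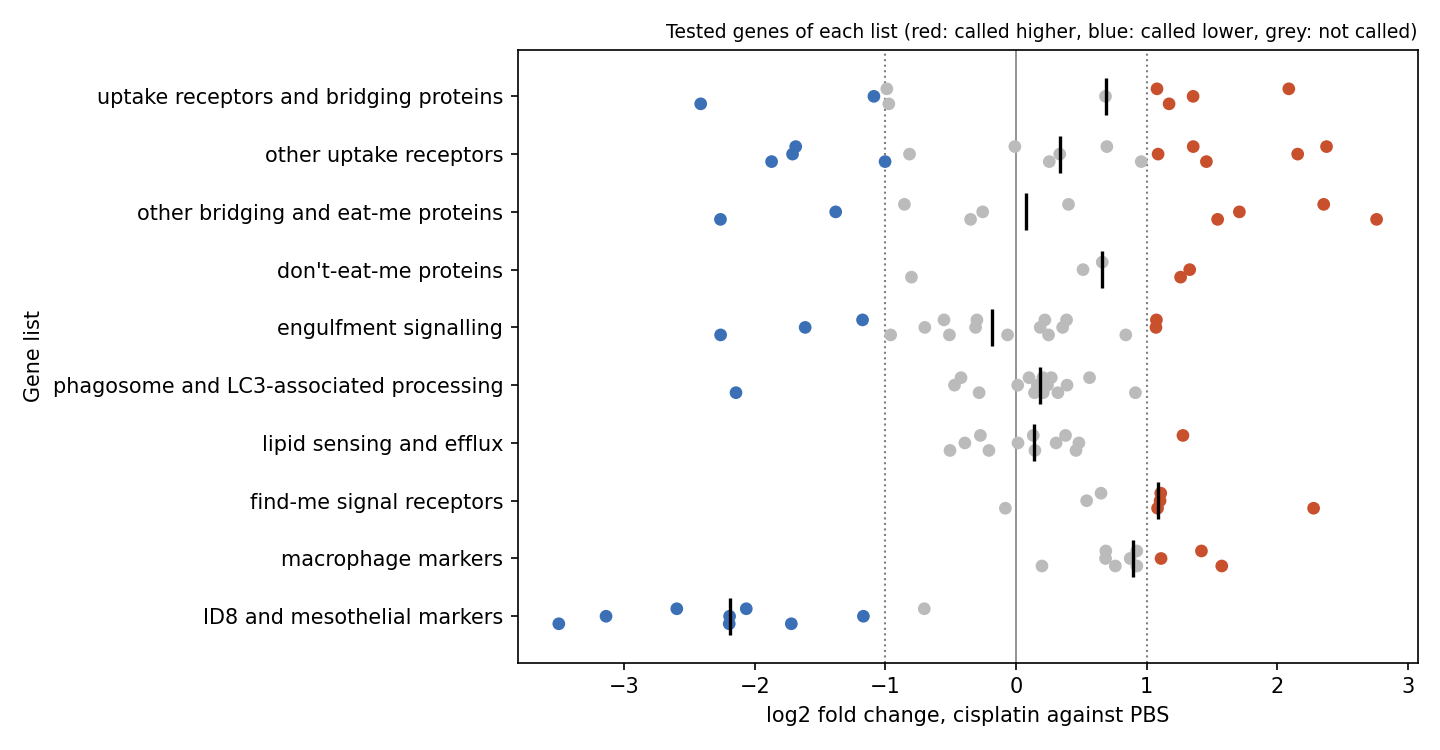
Log2 fold change, cisplatin against PBS, of the tested genes in each list (points, red for called higher, blue for called lower and grey for not called), with a black tick at the list's median and dotted lines at a change of 2-fold. The 9 tested uptake receptors and bridging proteins spread from -2.41 (Axl) to 2.09 (Stab1), the phagosome list held 1 call of 16, and the ID8 and mesothelial list had its median at -2.19.

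The genes whose profiles over the 6 libraries lay nearest to that of Axl, by Euclidean distance between centred log2(FPKM + 1) values, were Mal2 (0.0988), Sema3c (0.107) and Egln1 (0.112). Those nearest to Mertk were Slc2a6 (0.132), Layn (0.136) and Srpk3 (0.136). With 6 libraries in 2 groups, a small distance mostly reflects a similar difference between the groups.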

How the data were processed

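Poly-T selected RNA was sequenced in 6 libraries from co-cultures. Per the submitters' processing notes, reads were handled with fastp, HISAT2 2.0.5 and featureCounts 1.5.0-p3 on mm10. The methods of the study instead name LifeScope for alignment and counting, followed by a DESeq2 test run by the authors. The authors deposited FPKM, not counts, as 1 table whose value columns were all assigned to libraries by label. Gene coordinates are as deposited, and those of the 10 genes were the same in GENCODE M21. Multiplied by gene length, all values worth under 200 reads were whole multiples of 1 read within 0.1 read, which gave the reads per library.

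Genes with at least 1 FPKM in at least 3 libraries were tested on log2(FPKM + 1) with limma 3.58.1 under R 4.3.3 (lmFit, eBayes with a trend), with the group as the only term and Benjamini-Hochberg adjustment over all 13441 genes. Ratios within libraries were compared by exact permutation (scipy 1.17.1). The procedure was tested on simulated data. The genes and lists were chosen with earlier results of these data known. Named were all 10 genes and, in each list, up to 3 called genes with the largest change. Any further name was picked with its values in view. Overlapping genes were found from shared exon bases. Same-numbered libraries did not deviate together (correlation of deviations -0.104, -0.0857 and -0.0235). Alternatives were another pseudocount, filter, scaling or test, a replicate block and leaving out each library.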

Additional observations from a re-analysis of the deposited data

How the results depend on the processing

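Over all the settings tried, Axl stayed called lower (-3.37 to -2.37) and Stab1 called higher (1.17 to 2.35). Scaling to the macrophage markers or to 4 genes of the Y chromosome brought the median over all genes to -0.79 or -0.83, and the counts went with that shift. All genes called higher became 89 and 85 and all called lower 4866 and 5181, so that 1.8% and 1.6% of calls were higher, against 29.3%. Of the 10 genes 1 and 1 were called higher and 4 and 4 lower, and of the pathway genes 5 and 5 higher and 28 and 29 lower. Elmo1 reversed (-0.18 and -0.23, limma adjusted p = 0.0586 and 0.0253). Mertk (0.68 and 0.67), Pros1 (0.62 and 0.59) and Msr1 (0.45 and 0.40) lost their calls, and Tyro3 (-1.45 and -1.48) and Gas6 (-1.84 and -1.89) gained one. A pseudocount of 0.1, which shrinks low values less, called 973 genes higher and, like TPM rescaling, 4 of the 10 lower, with Tyro3 at -1.82 and -1.53 and Gas6 at -1.05 and -1.04. Limma voom on the recovered reads called 1227 genes higher (39.7% of calls, and 39.3% under quantile normalisation, which moved the median by 0.10) and Tyro3 lower (-1.93). A filter of 5 FPKM, which removed Mertk and Pros1, left 2 of the 10 called higher.

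With the adjusted p alone, 4424 genes were higher (48.4%) and 4721 lower, among them 4 of the 10 lower, and 45 and 28 pathway genes. Limma treat against a 2-fold change called 240 higher (19.6%) and 982 lower, 2 of the 10 higher and 1 lower, and 10 pathway genes higher. It left Mertk (1.08), Pros1 (1.17) and Mfge8 (-1.09) uncalled. Leaving out each library gave 0.99 to 1.16 for Mertk, whose call was lost without PBS replicate 3, -1.09 to -0.92 for Tyro3, called without cisplatin replicate 1 or 2 or PBS replicate 2, and -1.08 to -0.91 for Gas6. In a fit with a replicate block the log2 fold changes were the same, 4 of the 10 genes were called higher and 2 lower, and no call among them changed. Equal numbers are not said to share a culture, and their deviations did not go together. Depth limits Timd4 and the PBS level of Mertk, which rested on the fewest reads. Where no cause is given here, the cause was not tested.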
